A study of Mus musculus with 8 samples.

Results

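Npy, the gene of neuropeptide Y, and the genes of its receptors Npy1r, Npy2r and Npy5r were followed across the neuronal subtypes of the mouse stellate ganglion. They were chosen by name and are 4 of the 19224 genes in the table of neurons. All 4 were measured, but Npy was the 1 member above the limit of 0.5 mean UMIs (unique molecular identifiers, which count captured RNA molecules) per 10000 used for tests across genes. The ganglia came from male C57BL6/J mice aged 8 to 10 weeks in which adeno-associated virus carrying GFP had been injected into the heart and virus carrying tdTomato into the front paws. All mice belong to this 1 condition, so no untreated group exists and the comparisons are between subtypes. The table holds 1303 neurons, selected by the authors, in 8 subtypes. These are the noradrenergic NA1a, NA1b, NA1c, NA2 and NA3, the clusters named cholinergic, Ach1 and Ach2, and the cluster named glutamatergic, Glut. All values are from the 1002 neurons of 5 mice of 1 batch. The other 301 neurons carry 3 mouse names that each match 2 samples, and they were not used here. Dissociation is described for 16 left and right ganglia combined while samples are labelled by mouse, so the spread between mice is the spread between these libraries.

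Neuropeptide Y is a peptide co-transmitter stored with noradrenaline in sympathetic neurons. It is cut from a precursor by prohormone convertases, amidated at its C-terminus, kept in dense-core vesicles and released at high firing rates. Its receptors Y1, Y2 and Y5 (Npy1r, Npy2r and Npy5r) couple to inhibitory Gi/o proteins. In sympathetic targets Y1 is best known for contraction of vascular smooth muscle, whereas Y2 is the classical presynaptic autoreceptor that reduces transmitter release, and Y5 is best known from feeding circuits of the brain.

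In the RefSeq annotation of GRCm38.p6, Npy lies on chromosome 6 (49822710 to 49829507, plus strand) and Npy2r on chromosome 3 (82538383 to 82548989, minus strand). Npy1r (chromosome 8, 66697149 to 66706800, plus strand) and Npy5r (chromosome 8, 66679965 to 66688094, minus strand) are neighbours that point away from each other, with 9328 bases between their start sites. None of the 4 overlapped another annotated gene. The 250 bases before the start of Npy, which carries the main differences below, and of Npy1r, the receptor with the most UMIs, are given 5′ to 3′ on the strand of the gene, at chr6:49822460-49822709 and chr8:66697172-66697421 (the start used for Npy1r lies inside its annotated span). Capitals mark matches on either strand to GGGCGG (the core of the GC box bound by Sp factors) and to ATAAAA (as found in many TATA boxes). The matches do not overlap.
Npy: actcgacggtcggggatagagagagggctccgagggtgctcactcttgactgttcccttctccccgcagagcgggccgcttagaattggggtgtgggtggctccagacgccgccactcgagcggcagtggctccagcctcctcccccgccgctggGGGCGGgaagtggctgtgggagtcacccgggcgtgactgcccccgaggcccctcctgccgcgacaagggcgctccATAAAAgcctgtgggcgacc
Npy1r: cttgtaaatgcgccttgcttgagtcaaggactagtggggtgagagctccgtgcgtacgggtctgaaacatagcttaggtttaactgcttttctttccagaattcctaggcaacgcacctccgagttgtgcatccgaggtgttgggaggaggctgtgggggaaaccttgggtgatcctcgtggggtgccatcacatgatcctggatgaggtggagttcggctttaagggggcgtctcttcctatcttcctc
The window of Npy held both motifs and that of Npy1r held neither. Of the 32851 windows of this length in the RefSeq table, 32.7% held GGGCGG and 17.0% held ATAAAA.

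Library depth, shared cell barcodes and marker genes were examined before the members. The 5 libraries held 165 to 235 neurons with a median of 2722 to 4854 UMIs per neuron, and the medians of the subtypes ran from 2162 UMIs in Ach1 to 8181.5 in NA1a. In these libraries 21 cell barcodes occurred in 2 to 5 libraries each, in 73 neurons. Of these neurons 55 were among the 150 NA2 neurons, 15 among the 46 Ach2 neurons and 3 among the 17 Glut neurons, and 0 were in the other subtypes. Npy UMIs were near equal within some of these barcodes (16, 17 and 16 in 1) and not in others (39, 17 and 26), with a median range of 21.7 UMIs per 10000 over the 16 barcodes found in NA2 alone, and 9 of the 21 barcodes had 0 or 1 Npy UMI in every library. The Npy levels and the Npy1r shares or limits of NA2, Ach2 and Glut are therefore given with and without these neurons. The comparison by depth, the shares of all Npy UMIs, the pathway lists and the correlations include them unless stated. Satellite glia markers (Apoe, Fabp7 and 7 others) summed to 182 to 339 UMIs per 10000 in NA3, against 3.20 to 23.4 in the mice of NA1a, NA1b, NA1c and NA2, and 8 of the 9 were higher in NA3 than in every other subtype. In Ach1 they summed to 115 in the 1 mouse with enough neurons. The 5 fibroblast markers summed to 37.4 in that mouse of Ach1 and 10.1 to 29.7 in NA3, against 0.522 to 3.11 in the mice of NA1a, NA1b, NA1c and NA2, and the 5 immune markers to 9.38 in Ach1. The 4 neuron markers (Snap25, Syt1, Pcsk1n and Prph) summed to 36.3 to 48.1 UMIs per 10000 in the mice of NA3. In the mice of NA1a, NA1b, NA1c and NA2 they summed to 74.6 to 114, and in the 1 mouse of Ach1 to 71.5. The markers of Ach1 were mixed. Chat, which makes acetylcholine, had UMIs in 0 of 62 neurons (a count that could hide a share of 4.84%), and Dbh, which makes noradrenaline, had UMIs in all 62. Of the other cholinergic markers, the peptide gene Vip was found in 64.5% of Ach1 neurons, against 9.33% to 26.1% in the noradrenergic subtypes, the vesicular transporter Slc18a3 in 9.68%, against 0.844% to 2.17%, and the choline transporter Slc5a7 in 1.61%. In Ach2 Chat was found in 34.8% of neurons and Vip in 95.7%. Slc17a6, the glutamate transporter that marks Glut, was found in 29.4% of Glut neurons. The related transporters Slc17a7 and Slc17a8 had 0 UMIs there. Pooled over mice, the glutamatergic markers summed to 1.21 UMIs per 10000 in Glut and to at most 0.00656 elsewhere. The noradrenergic markers summed to 89.9 in Glut, against 26.4 to 49.9 in the noradrenergic subtypes. Slc6a2 was found in 88.2% and Dbh in 64.7% of Glut neurons. The part that RNA of these other cells has in the Npy levels of NA3 and Ach1 was not tested.

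NA1a neurons had the highest level of Npy in each of the 5 mice, NA1c and NA2 about equal levels below it, and NA1b and Ach2 the lowest (the plot of Npy by subtype and mouse). Levels are mean UMIs per 10000 UMIs of a neuron, over the neurons of a subtype in a mouse with at least 10 such neurons. In mice 1 to 5 the level in NA1a was 77.6, 87.8, 93.3, 80.6 and 72.5. In NA1c it was 44.4, 46.6, 45.7, 34.3 and 45.6. In NA2 it was 48.4, 31.2, 50.9, 35.1 and 39.1. Every NA1a value thus lay above every value of NA1c and NA2, while the values of NA1c and NA2 overlapped throughout. In NA1b the level was 8.38, 15.3, 7.15, 7.59 and 6.36, below every value of these 3 subtypes. NA3 reached 10 neurons in mice 2, 4 and 5, with 27.5, 16.4 and 15.4 (19.8 ± 6.74, SD, n = 3), all above NA1b in the same mice. Ach2 reached it in mice 1 and 4, with 4.62 and 6.91, below NA1b in the same mice.

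**Figure D1:**
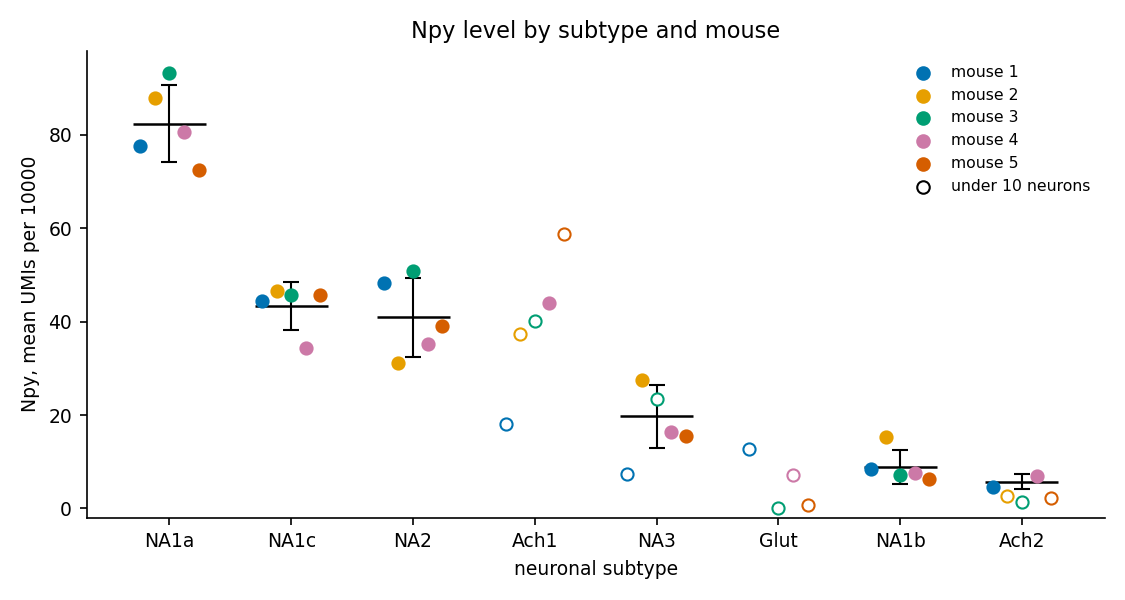
Mean Npy UMIs per 10000 (y axis) in each subtype (x axis). Filled circles are mice with at least 10 neurons of the subtype, open circles mice with fewer, and bars the mean ± SD of the filled circles where there are at least 2. The NA1a circles sit between 72.5 and 93.3 and the NA1b circles between 6.36 and 15.3, with no overlap.

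Neighbours in this order were compared by limma on log2(level + 0.1) with mouse as a block. The subtypes are clusters that the authors drew from the expression of these same cells, Npy among it, so these p-values set a difference against the spread between mice and are no independent evidence that the subtypes differ. NA1a exceeded NA1c by 0.93 on the log2 scale (standard error 0.19, adjusted p = 0.00184) and in 5 of 5 mice, where 4.37% of the 7095 genes tested were called. This call was lost with subtypes of at least 5 neurons in the fit (adjusted p = 0.38) and with summed UMIs (0.76, adjusted p = 0.11). NA1c and NA2 were not told apart (0.10, standard error 0.19, adjusted p = 0.677; NA1c was higher in 2 of 5 mice), in a comparison in which 55.5% of all genes were called and the median gene differed by 0.31, and the sign turned when profiles were centred on the median gene (-0.24). The mean of the deposited natural log values, which weighs neurons at 0 more heavily, put NA1c higher by 1.03 (adjusted p = 0.000484). NA2 exceeded NA3 by 1.05 (standard error 0.22, adjusted p = 0.000233), in 3 of 3 mice with both and beside 35.7% of all genes, a call lost with the mean of natural log values (0.42, adjusted p = 0.273). NA3 exceeded NA1b by 1.18 (standard error 0.22, adjusted p = 8.41e-05), in 3 of 3 mice and beside 21.2% of all genes. The 4 neuron markers summed lower in NA3 (40.6 ± 6.46, SD, n = 3) than in NA2 (99.1 ± 10.3) or NA1b (83.0 ± 7.55, n = 5 each). The part of this in the Npy differences of NA3 from NA2 and from NA1b was not tested. NA1b and Ach2 did not pass the test (0.50, standard error 0.26, adjusted p = 0.248), where 8.2% of all genes were called, but they did with subtypes of at least 5 neurons (1.41, adjusted p = 0.00231). Across the whole range, NA1a exceeded NA1b by 3.26 (standard error 0.19, adjusted p = 1.96e-17), a 9.55-fold difference and the smallest p of the 7095 genes, while 3.48% of them were called. Over 5 mice an exact sign-flip permutation test cannot give a two-sided p below 0.062, which it gave for NA1a against NA1c and against NA1b.

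Without the neurons of shared barcodes, NA2 stood at 63.6, 53.3, 34.2 and 43.9 in mice 1, 3, 4 and 5 (mouse 2 fell below 10 neurons). The difference of NA1c against NA2 then turned to -0.24 (limma adjusted p = 0.348) and that of NA2 against NA3 grew to 1.41 (adjusted p = 1.66e-05). Ach2 rose to 6.01 in mouse 1, still below the 8.38 of NA1b, and to 9.04 in mouse 4, above the 7.59 of NA1b. The difference of NA1b against Ach2 shrank from 0.50 to 0.10 (limma adjusted p = 0.9), so Ach2 was then not lower than NA1b in both mice. Pooled over the mice, the 15 Ach2 neurons with a shared barcode held 1 Npy UMI, a mean of 0.338 UMIs per 10000, and the other 31 had a mean of 6.66.

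Deeper neurons did not stand higher in every subtype. In NA1a the 147 neurons with at least 5000 UMIs had a mean Npy of 87.3 UMIs per 10000 and the 35 shallower ones 67.2. In NA1b the difference ran the other way, with 7.10 in 87 deeper and 12.5 in 150 shallower neurons, as it did in Ach1, with 19.7 in 8 and 46.2 in 54. Glut also was lower in deeper neurons, with 1.15 in 5 and 6.31 in 12. NA1c (57.1 and 40.6), NA2 (51.4 and 40.8), NA3 (22.3 and 11.8) and Ach2 (7.22 and 2.58) were higher in deeper neurons. Of the 73 neurons of shared barcodes 0 had 5000 UMIs, so all of them are among the shallower ones. Depth also differed between mice. In NA1b the medians of mice 1 and 2 were 2569 and 2615.5 UMIs, with Npy levels of 8.38 and 15.3. Mice 3 to 5 had NA1b medians of 5807 to 9223 and levels of 6.36 to 7.59. Of the 62 Ach1 neurons 55 were from mouse 4, at a median of 2072. The means by depth are pooled over mice, and the parts of depth and of mouse in the levels were not tested.

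The same mean hid unlike distributions in NA1c and NA2 (the plot of Npy in each neuron). Every one of the 216 NA1c neurons had a Npy UMI (95% exact Clopper-Pearson interval 98.3% to 100%), at a median depth of 2778.5 UMIs. Of the 150 NA2 neurons 83.3% did (76.4% to 88.9%), at a median of 2341.5. By mouse the NA2 share was 81.5%, 78.6%, 81.6%, 83.7% and 94.1%, below the 100% of NA1c in all 5. With each neuron thinned to 2000 UMIs the shares were 99.1% ± 1.21 in NA1c and 73.7% ± 7.84 in NA2 (SD, n = 5, with 8 NA2 neurons left in mouse 2), still with no overlap. Between 29.4% and 36.7% of the NA2 neurons of a mouse had under 10 UMIs of Npy per 10000, against 0% to 12.5% in NA1c. At the other end, 50 or more were reached by 31.9% ± 12.6 of NA2 and 39.7% ± 8.46 of NA1c neurons, which overlapped. The coefficient of variation over neurons of a mouse was 97.4% to 120% in NA2 and 51.3% to 87.5% in NA1c, but without shared barcodes that of NA2 was 73.0% to 113%, which overlapped NA1c. These gaps are descriptions, without a test. Without shared barcodes the NA2 share under 10 was 20.0% to 37.1% in 4 mice, and the share with a Npy UMI was 89.5% of 95 neurons. By mouse that share then ran from 85.7% to 100%, so that NA2 equalled NA1c in mouse 5 and in mouse 2, where 6 neurons were left. Neurons free of Npy remained among the deepest NA2 neurons, where 5 of the 27 with at least 5000 UMIs had none, compared with 0 of 51 in NA1c.

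**Figure D2:**
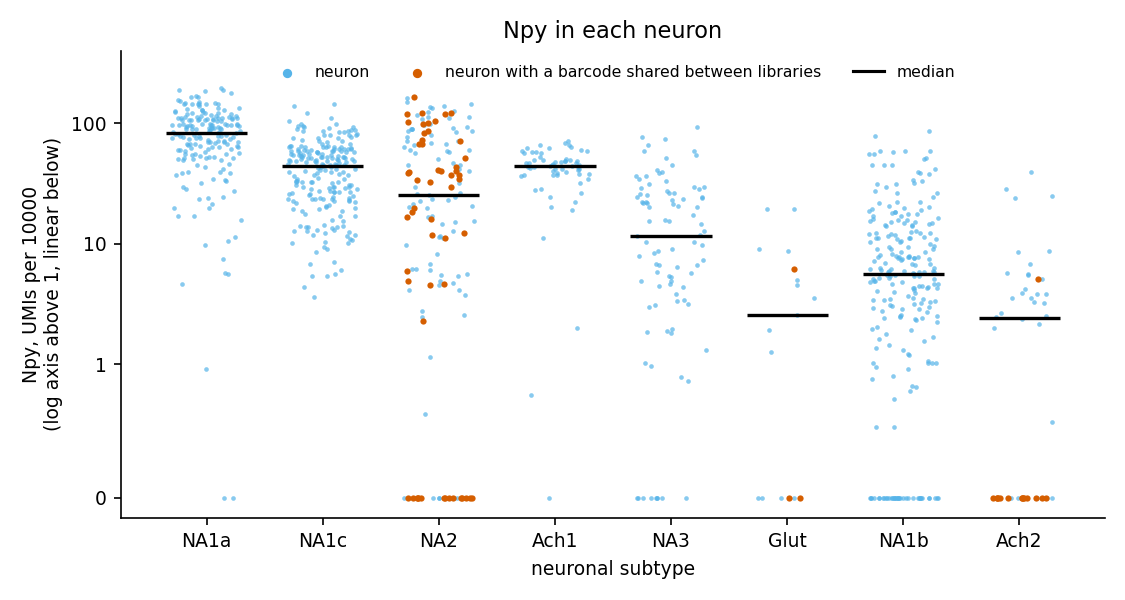
Npy UMIs per 10000 in each of the 1002 neurons (y axis, logarithmic above 1 and linear below) by subtype (x axis), with the median as a bar and neurons of shared barcodes in orange. NA1c has no neuron at 0, NA2 reaches from 0 to 166, and the Ach1 neurons crowd about their median.

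In the remaining subtypes a Npy UMI was found in 98.9% of 182 NA1a, 90.2% of 92 NA3, 84.4% of 237 NA1b, 64.7% of 17 Glut and 58.7% of 46 Ach2 neurons. No cell type known to lack Npy is in this table, so the share that free RNA alone would give could not be measured. The lowest share, that of Ach2, stood at a median depth of 3228 UMIs and rose to 83.9% of 31 neurons without shared barcodes. Thinned to 2000 UMIs, 57.5% ± 15.9 of NA1b neurons (SD, n = 5 mice) and 97.9% ± 2.22 of NA1a neurons kept a Npy UMI. NA1b was uneven within itself: 73.2% ± 13.3 of its neurons had under 10 UMIs per 10000, and 14 of its 87 neurons with at least 5000 UMIs had no Npy. In Ach1, 98.4% of 62 neurons had a Npy UMI, and the level was 44.1 in mouse 4, which held 55 of them. Its coefficient of variation over neurons, 33.8%, was below that of every mouse and subtype above with at least 10 neurons. The other mice had 1 to 3 Ach1 neurons each, at 18.1 to 58.9. Glut had no mouse with 10 neurons. Its 17 neurons averaged 4.79, 35.3% of them had none, and the highest reached 19.5. Without its 3 shared-barcode neurons the mean was 5.38.

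NA1a made up 19.0% ± 8.06 of the neurons of a mouse but held 54.3% ± 16.0 of its Npy UMIs (SD, n = 5; 30.5% to 69.7%). NA1b was the reverse, with 23.2% ± 9.90 of neurons and 4.47% ± 3.55 of Npy UMIs. NA1c held 19.4% ± 12.8 of the Npy UMIs and NA2 11.4% ± 8.05. These shares also carry the depth of the neurons, which was highest in NA1a and NA3.

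Npy1r was the receptor with the most UMIs, 95 in 79 of the 1002 neurons (7.88%; 6.29% to 9.73%), against 23868 UMIs of Npy. Of the 79 neurons 65 had a single UMI and the highest count was 4. No receptor passed the limit for tests across genes, so their levels are descriptions. Npy1r was found in 28 NA1a, 16 NA1b, 13 NA1c, 12 NA2, 4 NA3 and 6 Ach1 neurons. It was found in 0 of 46 Ach2 neurons, at a median depth of 3228 UMIs, a count that could hide a share of 6.52%, and in 0 of 17 Glut neurons, where 17.6% could be hidden. Without shared barcodes these limits were 9.68% of 31 and 21.4% of 14 neurons. Limits and intervals cover counting error only. As shares the counts were 15.4% in NA1a (10.5% to 21.5%), at a median depth of 8181.5 UMIs, and 6.75% in NA1b (3.91% to 10.7%). At 2000 UMIs a neuron the pooled share of NA1a was 4.47%. The Ach2 limit was taken at full depth, so a comparison of these shares does not decide whether Ach2 differs. Summed over neurons, Npy1r stood at 0.298 UMIs per 10000 in Ach1 (95% exact Poisson interval 0.110 to 0.650), 0.258 in NA1a (0.184 to 0.353), 0.227 in NA2 (0.124 to 0.381), 0.162 in NA1c (0.0888 to 0.273), 0.129 in NA1b (0.0737 to 0.209) and 0.0817 in NA3 (0.0300 to 0.178). Neighbours in this order had overlapping intervals, whereas those of NA1a and NA3 did not overlap. Ach2, with 0 UMIs, had an interval of 0 to 0.153, or 0 to 0.177 without shared barcodes. That interval lay below the one of NA1a and overlapped the others listed. The intervals pool the neurons of all mice and are no test.

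In mice 1 to 5, the share of NA1a neurons with an Npy1r UMI was 12.5%, 11.1%, 18%, 16.7% and 17.4%. In NA1b it was 5.26%, 3.19%, 9.68%, 15.2% and 7.32%. In NA1c it was 5.26%, 4.29%, 10%, 4.17% and 7.81%. NA1a was higher than each in 5 of 5 mice, by 7.01 percentage points (SD 3.25) over NA1b and 8.83 (SD 2.31) over NA1c. Both gave the smallest p that the exact two-sided sign-flip test allows with 5 mice, 0.062, and 0.5625 after adjustment over the 18 comparisons of 3 receptors and 6 pairs, of which 0 passed. NA1a neurons were also deeper, at a median of 8181.5 UMIs in these mice against 3338 in NA1b and 2778.5 in NA1c. Thinned to 2000 UMIs, the shares were 4.24% ± 1.55 in NA1a, 3.12% ± 2.39 in NA1b and 2.60% ± 1.97 in NA1c (SD, n = 5 mice). The differences shrank to 1.12 points (SD 2.95) and 1.64 points (SD 2.46), with NA1a higher in 4 of 5 mice in each (the plot of Npy1r by mouse). In NA2 the shares were 3.70%, 14.3%, 4.08%, 2.33% and 35.3%, a mean of 11.9% ± 13.9 that mouse 5 set with 8 of the 14 UMIs in 17 neurons. Without mouse 5, NA1a exceeded NA2 by 8.47 points, against 3.20 with it. The NA2 neurons of mouse 5 had a median of 4864 UMIs, against 2046 to 2332 in the other mice, and their share was 7.22% when thinned to 2000 UMIs. At that depth the NA2 mean was 3.14% ± 3.38 in the 4 mice with 10 neurons left. NA1a exceeded it by 1.38 points (SD 4.15), and was higher in 2 of the 4. Of the 12 NA2 neurons with Npy1r, 9 had a barcode in 1 library only, and without shared barcodes the mean was 11.4% ± 19.2 (n = 4). In NA3 the share was 8.70%, 0% and 2.56% in mice 2, 4 and 5, below NA1a in each. Thinned to 2000 UMIs it was 1.14% ± 0.990 (SD, n = 3). NA3 was not part of the share tests.

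**Figure D3:**
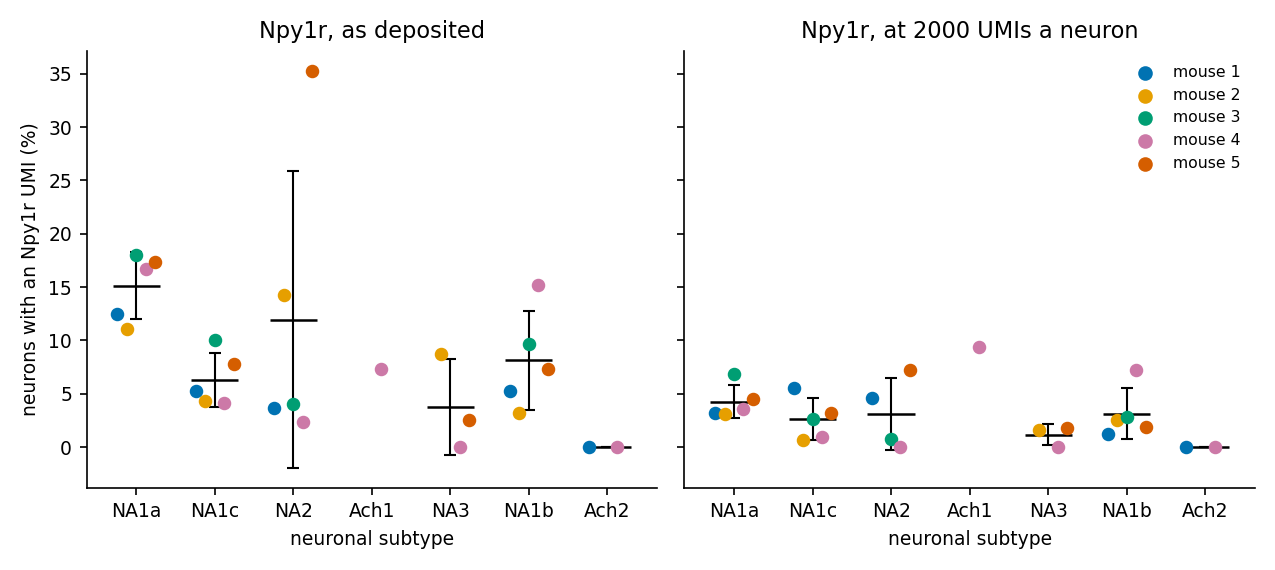
Percent of neurons with an Npy1r UMI (y axis) by subtype (x axis) in each mouse with at least 10 neurons, as deposited (left) and at 2000 UMIs a neuron (right), with the mean ± SD as bars. On the left the NA1a points lie between 11.1% and 18%, and on the right the NA1a mean of 4.24% stands amid the points of NA1b and NA1c.

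Npy5r had 5 UMIs in 5 neurons (0.499%; 0.162% to 1.16%), of which 2 were NA1a, 1 NA1b, 1 NA2 and 1 NA3. Npy2r had 2 UMIs, in 1 NA1b and 1 Ach1 neuron (0.200%; 0.0242% to 0.719%). Its count of 0 in 182 NA1a neurons could hide a share of 1.65%. A difference between subtypes was not detectable for either gene. Of the related genes, Npy4r, the Y4 receptor for pancreatic polypeptide, had 10 UMIs in 9 neurons, with 3 of the 46 Ach2 neurons (6.52%; 1.37% to 17.9%) and 2 of the 182 NA1a neurons among them. Pyy, which encodes the related peptide YY, had 0 UMIs in 1002 neurons, where a share of 0.299% could be hidden.

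Receptor and ligand were found in the same neurons. All 79 neurons with Npy1r also had a Npy UMI (100%; 95.4% to 100%), against 89.3% of the 923 neurons without Npy1r, and so did all 5 with Npy5r and both with Npy2r. Neurons with Npy1r were deeper, with a median of 8960 UMIs against 3310. To set subtype aside, the number of neurons with both was compared, in each mouse, with the number expected from the 2 shares within each subtype. For Npy and Npy1r 12, 14, 16, 18 and 19 neurons were observed in mice 1 to 5, and 11.3, 13.1, 14.8, 16.7 and 17.9 were expected, in all 79 against 73.8. The excess was 0.533% ± 0.148 of neurons (SD, n = 5) and positive in 5 of 5 mice, with the smallest p the exact two-sided sign-flip test allows (0.062, adjusted 0.375 over 6 pairs of genes). As every neuron with Npy1r had a Npy UMI, this excess was at its upper limit and could not be negative. Its sign and p therefore add nothing to the 79 of 79. Thinned to 2000 UMIs, 23.3 were observed and 21.2 expected, and the excess was 0.248% ± 0.209, again positive in 5 of 5 (p = 0.062 in the exact test). Without shared barcodes 76 were observed and 72 expected, with 5 of 5 positive, again at the upper limit. Npy and Npy5r shared 5 neurons with 4.53 expected. Npy1r and Npy5r, the neighbours on chromosome 8, shared 2 neurons of the 5 mice with 0.480 expected (above in 2 mice, below in 1, exact p = 0.5). In all, 83 neurons had at least 1 of the 3 receptors, 3 had more than 1, and 0 had a receptor without a Npy UMI.

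**Figure D4:**
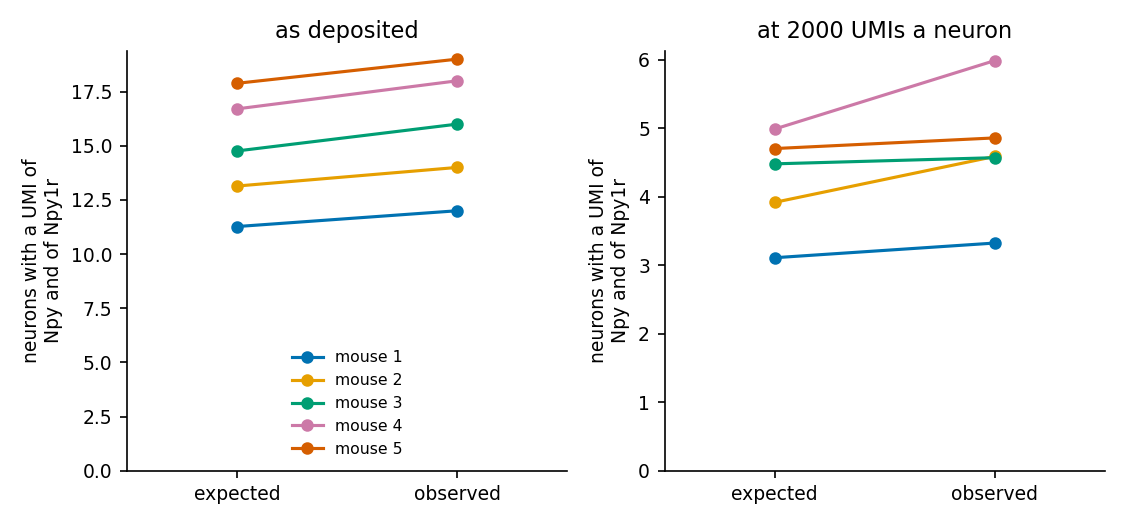
Neurons with a UMI of both Npy and Npy1r (y axis) expected from the shares within subtypes, and observed (x axis), 1 line per mouse, as deposited (left) and at 2000 UMIs a neuron (right). Each of the 5 lines rises in both panels, from 73.8 expected to 79 observed in all on the left and from 21.2 to 23.3 on the right. On the left no line could fall, since every neuron with Npy1r had a Npy UMI.

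Neurons of a subtype with high and with low Npy were not told apart in their Npy1r. In each mouse and subtype, the neurons in the top 30% of Npy were set against those in the bottom 30%. Npy1r UMIs in the top and bottom groups were 1 and 6 in mouse 1, 4 and 2 in mouse 2, 9 and 8 in mouse 3, 9 and 1 in mouse 4, and 5 and 4 in mouse 5. The direction thus differed between mice. Per 10000 UMIs the means were 0.173 ± 0.113 in the top and 0.147 ± 0.115 in the bottom group, a difference of 0.0251 (SD 0.138, n = 5, exact sign-flip p = 0.5625, adjusted 1.0 over 3 receptors). Without shared barcodes the difference was 0.00780. With 49 UMIs in all, differences smaller than this spread could not be seen. For Npy5r there were 2 UMIs in the top and 1 in the bottom group, and for Npy2r 0 and 1.

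Of the genes that make, store, release and answer to the peptide, few differed between NA1a and NA1b beyond the spread between mice. Of the listed genes that passed the limit, Npy itself, Pam and Chga were higher in NA1a and 0 were lower, where 2.28% of all genes tested were called higher and 1.2% lower. Pam, which amidates the C-terminus that the receptors require, averaged 4.18 ± 0.899 UMIs per 10000 in NA1a and 2.20 ± 0.0441 in NA1b (log2 difference 0.87, standard error 0.23, limma adjusted p = 0.0204). It was higher in 5 of 5 mice but lost its call in 5 of 14 alternatives: with subtypes of at least 5 neurons (limma adjusted p = 0.311), without mouse 5 (0.116), when thinned (0.0999), without mouse 4 (0.0927) and with no filter (0.0725). Chga, chromogranin A of the dense-core granule, averaged 4.70 ± 1.74 and 1.62 ± 0.508 (1.45, standard error 0.26, adjusted p = 0.000197) and was higher in 5 of 5.

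By list, 1 of 8 genes of precursor cleavage, trimming and amidation was higher, with a list median of 0.39 against 0.00109 for all genes. Beside Pam, the convertases Pcsk2 (0.87, adjusted p = 0.142) and Pcsk1 (0.87, adjusted p = 0.204) did not pass the limma test, but both did with the mean of natural log values (0.0090 and 0.0086), and Pcsk1 with a pseudocount of 1 (0.0447). Of the dense-core vesicle genes 1 of 9 was higher (median 0.35), and secretogranin II, Scg2 (0.77, adjusted p = 0.0624), and chromogranin B, Chgb (0.54, adjusted p = 0.238), did not pass, though Scg2 did with a pseudocount of 1 (0.0249) and with the mean of natural log values (0.0152). Of the Gi/o proteins and their effectors 0 of 8 passed (median -0.25). The calcium channel subunit Cacna1a (-0.70, adjusted p = 0.111) and the G proteins Gnao1 (-0.46, adjusted p = 0.348) and Gnaz (-0.50, adjusted p = 0.51) were lower in 5 of 5 mice without passing, except Cacna1a with a pseudocount of 1 (-0.56, adjusted p = 0.0334). Of the peptide-degrading enzymes 0 of 2 passed, Xpnpep1 at -0.26 (adjusted p = 0.863) and Ece1 at 0.14 (adjusted p = 0.937), and Dpp4, the protease that trims NPY to a form that spares Y1, was below the limit.

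**Figure D5:**
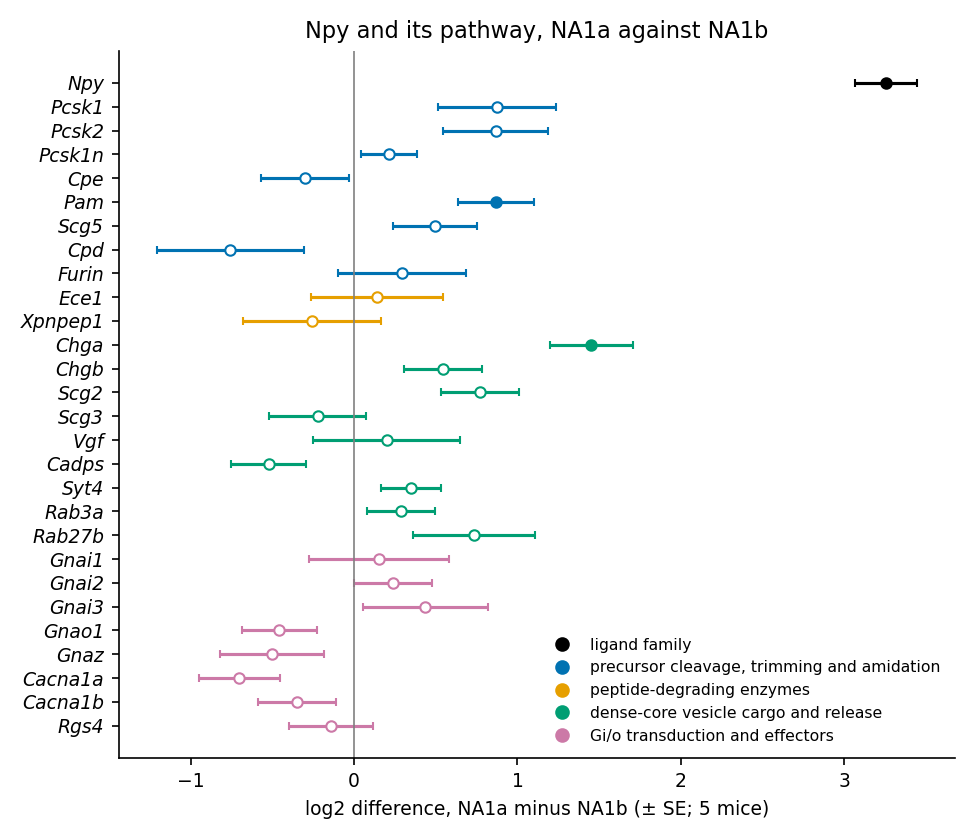
Log2 difference, NA1a minus NA1b, with its standard error (x axis), for the genes of the Npy pathway lists that were tested (y axis), coloured by list. Filled points passed limma at an adjusted p of 0.05: Npy at 3.26, Chga at 1.45 and Pam at 0.87.

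The other comparisons are given beside the share of all genes called in each, with neurons of shared barcodes included. Without these neurons, of 7168 genes, 3334 were called between NA1c and NA2, 2061 between NA2 and NA3 and 335 between NA1b and Ach2. With them the counts were 3940, 2535 and 582 of 7095. Between NA1a and NA1c, where Npy differed by 0.93 and 4.37% of all genes were called, 0 of 8 processing and 0 of 9 vesicle genes passed, and of the Gi/o list Cacna1a was lower in NA1a (-0.84, limma adjusted p = 0.039; 0.0602 without shared barcodes). Between NA1c and NA2, 2 of 8 processing genes, 5 of 9 vesicle genes and 4 of 8 Gi/o genes passed, beside the 55.5% of all genes. There Chga was higher in NA1c (1.26, adjusted p = 6.11e-05) and Scg2 lower (-0.81, adjusted p = 0.00407). Between NA2 and NA3, 2 of 8, 5 of 9 and 4 of 8 passed beside 35.7% of all genes, all 7 of the first 2 lists higher in NA2. The neuron markers, of which Pcsk1n is also on the first list, summed higher in NA2 than in NA3 as well. Between NA3 and NA1b the counts of the lists were 2, 2 and 5, beside 21.2% of all genes. Between NA1b and Ach2 they were 2, 2 and 2, beside 8.2%, with Chgb (1.71, adjusted p = 0.000353) and Scg2 (1.84, adjusted p = 0.000161) higher in NA1b than in Ach2.

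Over the 25 profiles of a mouse and subtype, the gene whose log2 level was most like that of Npy was Gal, the neuropeptide galanin (Pearson r = 0.91 over 7094 other genes with a median r of -0.01; r = 0.89 within the 15 profiles of NA1a, NA1b and NA1c). Gal averaged 23.0 ± 10.0 UMIs per 10000 in NA1a, 13.3 ± 3.60 in NA2, 10.3 ± 2.29 in NA1c, 5.02 ± 0.854 in NA3, 3.60 ± 1.40 in NA1b and 2.44 ± 1.85 in Ach2. Bub3, a mitotic checkpoint protein (r = 0.87), the palmitoyltransferase gene Zdhhc22 (0.83), Kcnmb4, an auxiliary subunit of large-conductance potassium channels (0.82), and follistatin, Fst (0.81), came next. Most opposed were Gfra2, the neurturin receptor (r = -0.77), the IP3 receptor Itpr1 (-0.76), Slc38a11 (-0.72), Ppfia4 (-0.70) and clusterin, Clu (-0.69). Gfra2 averaged 0.109 ± 0.108 in NA1a, 0.856 ± 0.264 in NA1b and 1.76 ± 0.215 in Ach2. The profiles share mice and subtypes, and profiles of NA2 and Ach2 share barcodes, so these correlations are descriptions.

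Virus transcripts marked few neurons. GFP or tdTomato UMIs were present in 24 neurons, of which 23 had a Npy UMI (median 13.4, range 0 to 165 UMIs per 10000) and 2 had Npy1r, with 0 for Npy2r and for Npy5r. No comparison between heart and paw was drawn from these numbers.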

How the data were processed

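Stellate ganglion cells were profiled on a 10x Genomics Chromium system. From the labels and methods, the authors used Cell Ranger 2.1.1 with mm10, kept cells with over 500 and under 6000 genes, under 20000 UMIs and under 15% mitochondrial RNA, and named subtypes from Louvain clusters. No doublet caller was run here. Deposited values are given on a natural log scale, of 1 + UMIs per 10000. UMIs were recovered by dividing by the smallest step of a cell, and 100% of nonzero values lay within 0.01 of a whole number. The members and lists were chosen with earlier results of these data known. As the values are logs, limma 3.58.1 (R 4.3.3) was run on log2(mean UMIs per 10000 + 0.1) of 25 profiles with at least 10 neurons, with mouse as a block, an intensity trend and Benjamini-Hochberg adjustment. A run on simulated profiles drew values independently around 1 mean per gene. It held no mouse effects and no shared barcodes, so it does not test the fit under these conditions. Mouse was a block because profiles come from the same animals. The mean residual correlation was small, 0.0616 between profiles of 1 mouse and -0.0154 between profiles that differed in both mouse and subtype. Shares, co-detection and Npy strata were tested by exact two-sided sign-flip permutation over mice (SciPy 1.17.1). Thinning to 2000 UMIs left out shallower neurons and kept 176 of 182 NA1a, 195 of 237 NA1b, 169 of 216 NA1c and 101 of 150 NA2 neurons of the 5 mice. Named genes were the 3 with the smallest p of each list in NA1a against NA1b, the 5 most and 5 least like Npy, and label markers. The list genes named for other comparisons were chosen after their values were seen. Alternatives changed the pseudocount, filter, neuron minimum, average, centring, thinning, block and mice, and 2 more, without shared barcodes and summed UMIs for shares, were added after seeing the data. The table holds 8 mouse names, of which 3 (301 neurons) match 2 samples each and were left out. Ppy, Npy6r and Kcnj5 were not analysed here. A listed glial marker is not reported here and was left out of its list.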

Additional observations from a re-analysis of the deposited data

Results flagged for a closer look

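Of 15 sets of 5 mice examined with Dixon's test, 2 held a mouse that stood apart, and chance flags about 1 in 20 such sets. The Npy level of NA1b was 15.3 UMIs per 10000 in mouse 2, against 6.36 to 8.38 in the other 4 mice, over 94 neurons at a median of 2615.5 UMIs. The Npy level of NA1c was 34.3 in mouse 4, against 44.4 to 46.6 in the others, over 24 neurons. What set these mice apart was not tested.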

How the results depend on the processing

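Npy in NA1a against NA1b kept its direction and its call under all 14 alternatives (3.12 to 3.62), as did NA3 against NA1b (0.95 to 1.46). NA1a against NA1c lost its call with at least 5 neurons (0.93, limma adjusted p = 0.38) and with summed UMIs (0.76, 0.11), and ranged from 0.85 to 0.99 with 1 mouse left out. NA1c against NA2 passed with the mean of natural log values (1.03) and reversed when centred (-0.243) and without shared barcodes (-0.240), with -0.0218 to 0.160 over mice left out. NA2 against NA3 was weaker with the mean of natural log values (0.42), and NA1b against Ach2 passed with at least 5 neurons (1.41). The Npy1r share of NA1b against NA2 (-3.82 points) turned to 0.130 when thinned and 6.66 with at least 20 neurons, and ranged from -7.98 to 2.22 with 1 mouse left out. NA1c against NA2 (-5.63) turned to 3.11 with at least 20 neurons. NA1b against NA1c (1.81) became -0.0322 in summed UMIs per 10000 and ranged from -0.478 to 2.54 with 1 mouse left out. Npy1r in high against low Npy neurons (0.0251) became -0.0673 when thinned and -0.00613 at 50%, and ranged from -0.0249 to 0.0718. Xpnpep1 in NA1a against NA1b reversed with the mean of natural log values (0.00530) and over mice left out (-0.511 to 0.0286). The causes were not tested. Genes called ranged over the alternatives from 11 to 882 in NA1a against NA1c (310 as reported), 2401 to 4258 in NA1c against NA2 (3940), 1290 to 3104 in NA2 against NA3 (2535), 942 to 1893 in NA3 against NA1b (1503), 203 to 1347 in NA1b against Ach2 (582) and 40 to 544 in NA1a against NA1b (247). Without the replicate block the Npy differences were 3.26 for NA1a against NA1b (adjusted p = 5.36e-16), 0.93 for NA1a against NA1c (0.00939), 0.10 for NA1c against NA2, 1.07 for NA2 against NA3, 1.16 for NA3 against NA1b and 0.58 for NA1b against Ach2, and no Npy call changed. All 5 mice are of 1 batch, so no value within batches is given. Depth limits the receptors: most neurons with Npy1r held 1 UMI, and Npy2r and Npy5r had 2 and 5 UMIs in all.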
